A study of Mus musculus with 6 samples.

Results

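The genes described here are 54 genes of the cell cycle and of DNA replication, chosen by name and found by symbol among the 54446 gene rows of the table. They fall by role into 17 replication genes, 4 genes of nucleotide supply, 11 cyclins, cyclin-dependent kinases and the phosphatase gene Cdc25b, 15 genes of mitosis, 3 transcription factors and 4 inhibitors. All 54 were above 0 in each of the 6 libraries, and 53 passed the filter of at least 1 TPM in at least 2 libraries. Cdkn2a did not pass. RNA of whole corneas from wild type C57BL/6 mice aged 6 weeks was sequenced. The 3 groups, with 2 libraries each, were unwounded corneas without treatment, wounded corneas, and wounded corneas of eyes given RNase III. The wound was a surgical removal of a part of the limbus, of corneal epithelium and of some stroma, and RNase III, an enzyme that cuts double-stranded RNA, was injected under the conjunctiva. The labels do not say how long after the wound corneas were taken, whether wounded corneas had a control injection, or whether a library came from 1 animal or from pooled corneas, so p-values measure only the spread between these libraries, which may be technical.

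The corneal epithelium is renewed throughout life by divisions of basal cells and of stem cells in the limbus, and after an injury cells near the defect first migrate while cells farther away divide. Before a cell copies its DNA, the proteins of Cdc6 and Cdt1 load a ring of MCM proteins onto the replication origins. Cdc45 and the GINS complex then turn that ring into the helicase that opens the double strand. E2F factors switch on most genes of this first phase, whereas the FOXM1 and MuvB factors act on the genes of mitosis, and CDK inhibitors hold both back.

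The promoters of replication and mitosis genes differed in 2 short sequences. RefSeq promoters on GRCm38.p6, from 250 bases before to 50 bases after a gene's start, were matched by symbol for 43 of the 54 genes, with 47 promoters in all. An E2F word, counted as TTTCCCGC, TTTCGCGC, TTTGCCGC or TTTGGCGC on either strand, stood in 8 of 15 replication promoters (53.3%) and in 0 of 12 mitosis promoters. All 32851 promoters of the table held one in 2.26% of cases. The cell cycle homology region, counted as TTTGAA on either strand, stood in 9 of 12 mitosis promoters (75.0%) and in 2 of 15 replication promoters (13.3%), against 17.9% of all promoters. Among the other roles, 0 of 4 nucleotide supply promoters held either word, 2 of 8 of the cyclins and kinases held each, and the transcription factors held an E2F word in 0 of 2 and TTTGAA in 1 of 2. Of the 6 inhibitor promoters 1 held each. CCAAT, on either strand, was common to both, with 80.0% of replication and 91.7% of mitosis promoters against 37.4% of all. These matches describe letters in a window and do not show that a factor was bound there. The 160 bases before the start of 6 genes are given because they show both words, with E2F words and TTTGAA words in capitals as read on the gene's strand.
Mcm5 (chr8:75109349-75109508, plus strand): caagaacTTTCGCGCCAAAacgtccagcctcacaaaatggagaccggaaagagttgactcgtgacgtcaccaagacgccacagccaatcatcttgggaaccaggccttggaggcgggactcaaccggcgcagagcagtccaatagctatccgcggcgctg
Mcm6 (chr1:128359706-128359865, minus strand): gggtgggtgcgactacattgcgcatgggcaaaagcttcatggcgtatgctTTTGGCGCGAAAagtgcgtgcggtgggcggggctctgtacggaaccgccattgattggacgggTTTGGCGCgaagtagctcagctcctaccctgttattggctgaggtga
Cdk1 (chr10:69352913-69353072, minus strand): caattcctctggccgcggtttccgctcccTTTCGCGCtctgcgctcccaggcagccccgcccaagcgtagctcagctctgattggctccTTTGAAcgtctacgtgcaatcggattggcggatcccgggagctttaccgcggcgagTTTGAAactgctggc
Top2a (chr11:99024190-99024349, minus strand): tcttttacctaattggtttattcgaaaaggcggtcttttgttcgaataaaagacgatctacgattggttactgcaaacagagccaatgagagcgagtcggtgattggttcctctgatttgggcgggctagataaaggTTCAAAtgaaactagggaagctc
Ube2c (chr2:164769769-164769928, plus strand): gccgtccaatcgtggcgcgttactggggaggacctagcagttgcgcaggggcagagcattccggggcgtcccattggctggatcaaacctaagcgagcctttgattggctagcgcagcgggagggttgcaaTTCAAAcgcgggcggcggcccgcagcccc
E2f8 (chr7:48881597-48881756, minus strand): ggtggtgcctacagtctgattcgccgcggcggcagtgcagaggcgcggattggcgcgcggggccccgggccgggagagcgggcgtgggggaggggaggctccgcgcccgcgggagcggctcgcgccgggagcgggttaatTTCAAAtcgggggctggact
Of these, the MCM helicase genes Mcm5 and Mcm6 show E2F words, with a pair on opposite strands that overlaps in both and a further, separate one in Mcm6, and Top2a, Ube2c and E2f8 show the TTTGAA word read from the other strand. Cdk1, whose kinase drives the entry into mitosis, shows both.

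The deposited values are TPM, the share of a library's transcripts that belongs to a gene, with the same total in each library. TPM keep no sequencing depth, which is unknown here, so no counting interval can be given. RNase III replicate 1 had 16751 genes above 0, where the other 5 libraries had 19455 to 21033. Counts of member calls without it are given with the comparisons that use it. For the other genes of these pathways and the cell type markers, calls without it were not counted. Krt12, the keratin that defines corneal epithelium, stood between 11217 and 19636 TPM in the 6 libraries, and summed epithelial markers between 45412 and 58117 TPM. Single epithelial markers moved more than this sum, in both directions. Krt14 had 540 and 425 TPM without a wound, 13240 and 9970 TPM after wounding, and 8820 and 12673 TPM with RNase III. In the same order Pax6 had 340 and 361 TPM, 51.15 and 140 TPM, and 168 and 182 TPM. Of the 12 epithelial markers 5 had a positive and 7 a negative difference with the wound. Wounded replicate 1 stood apart from wounded replicate 2 in its immune transcripts, with 9206 against 526 TPM summed over 10 neutrophil markers. In bulk corneas, fewer cells of a type and less RNA per cell cannot be told apart. Differences below are on the log2(TPM + 1) scale, where changes of genes with low values come out too small, and were tested with limma across 14748 genes with Benjamini-Hochberg adjustment at adjusted p under 0.05. With 2 against 2 libraries an exact permutation test cannot give a two-sided p below 0.333.

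Together the 50 members other than inhibitors made up 1141 and 1206 TPM without a wound, 1422 and 2470 TPM after wounding, and 2077 and 2780 TPM after wounding with RNase III. Both wounded groups lay above both unwounded libraries, and wounded replicate 1 was the lowest of the 4 wounded libraries. That library was below wounded replicate 2 for 49 of the 50 members, Aurka being the exception, where 64.4% of all genes were. It was also the lowest of the 4 wounded libraries for 42 of the 50 (84.0%, against 38.3% of all genes). RNase III replicate 2 was the highest of the 4 for 30 of the 50 (60.0%, against 40.3% of all genes). Whether the neutrophil transcripts of wounded replicate 1 bear on its low member values was not tested. RNase III replicate 2 also had 3351 TPM summed over 8 lens markers, where the other 5 libraries had 248.7 to 658 TPM. Cryaa is a crystallin of the lens. It had 0.37 and 1.32 TPM without a wound, 0.71 and 87.9 TPM after wounding and 1.07 and 1281 TPM with RNase III. Cryaa was higher in replicate 2 than in replicate 1 of both wounded groups, as most members were. Not all lens markers went this way. In wounded corneas Cryab had 602 TPM in replicate 1 and 218 TPM in replicate 2, and the 8 markers summed to 658 and 411 TPM. The part of lens RNA in the member values was not tested.

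**Figure D1:**
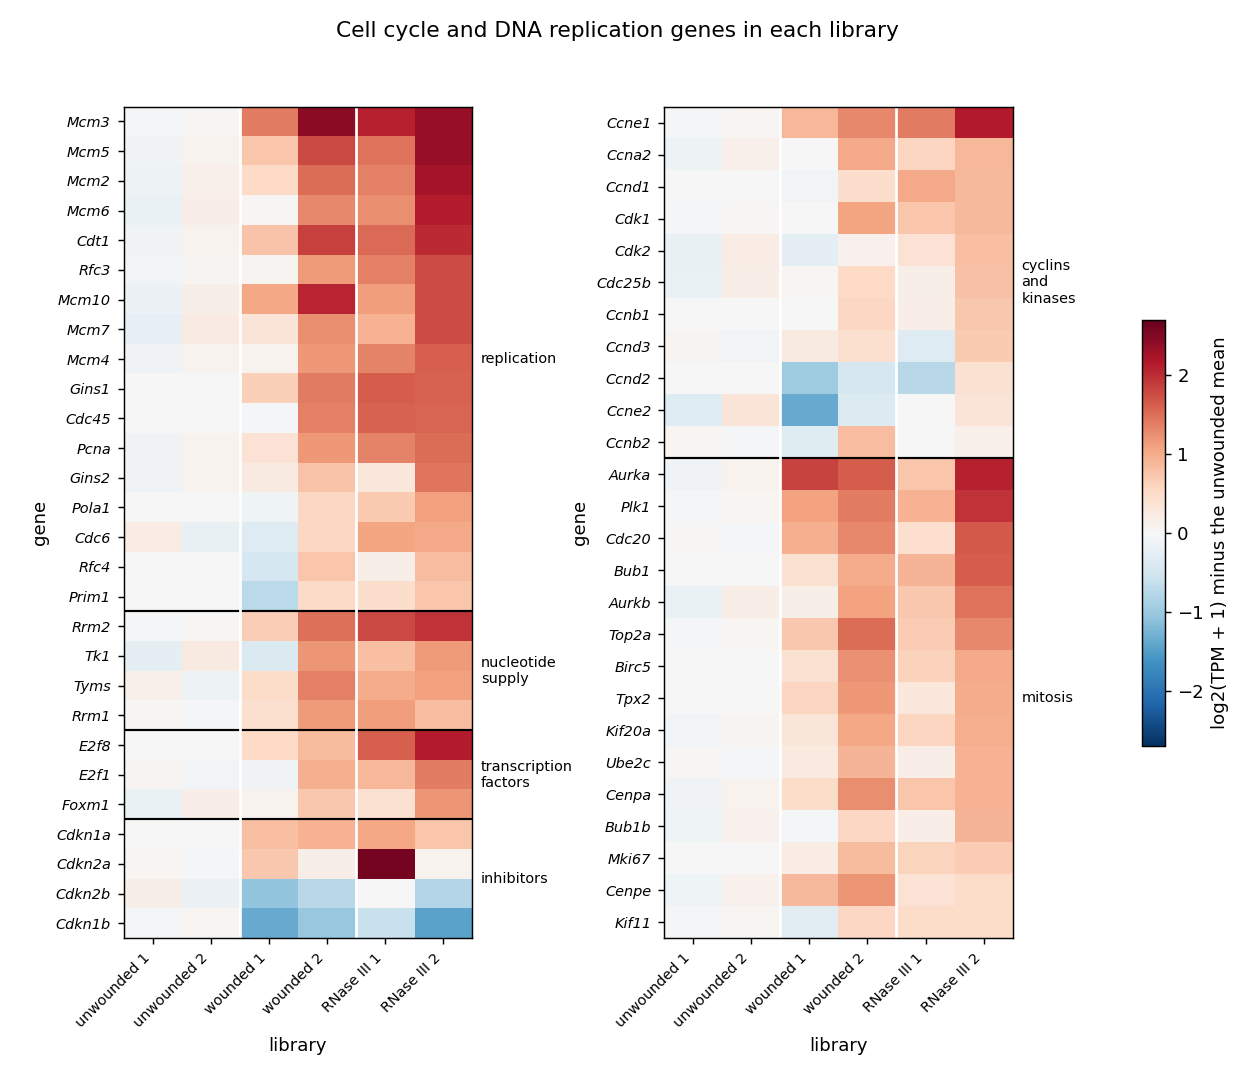
Each cell gives 1 gene (rows, grouped by role) in 1 library (columns) as log2(TPM + 1) minus the mean of the 2 unwounded libraries; red is higher and blue is lower. Wounded replicate 1 is paler than wounded replicate 2 in most rows, both RNase III libraries are red across the replication genes, and Cdkn1b is blue in all 4 wounded libraries.

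After the wound alone few of these genes passed the test. Among the 50 members other than inhibitors 3 rose and 0 fell, with 6.12% of all genes called higher and 9.83% called lower, so the share of members called higher was close to that of all genes, while none was called lower. Of the inhibitors 1 rose and 1 fell. The median difference of the 50 was 0.65, beside -0.26 for all genes, and 46 of the 50 had a value above 0, as did 37.1% of all genes. Both wounded libraries exceeded both unwounded libraries for 27 of the 50, where 25.3% of all genes did so, and lay below them for 2 of the 50, where 46.8% of all genes did. Without wounded replicate 1 the median of the 50 was 1.12, and without wounded replicate 2 it was 0.24.

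Wounded corneas with RNase III, set against unwounded corneas, had 12 of the 50 members called higher and 0 lower, where 4.72% of all genes were called higher and 4.58% lower. The median difference was 0.98, beside -0.16 for all genes. In 45 of the 50 both RNase III libraries exceeded both unwounded libraries, as they did for 26.3% of all genes, and in 0 of the 50 both lay below, as for 39.7% of all genes. A value above 0 was found for 49 of the 50, against 41.5% of all genes. By role, 7 of 17 replication genes, 1 of 4 of nucleotide supply, 2 of 11 cyclins and kinases, 1 of 15 mitosis genes and 1 of 3 transcription factors rose. This split by role rested on both RNase III libraries: 0 replication and 3 mitosis genes passed without RNase III replicate 1, and 0 and 0 without replicate 2. The median differences were 1.62 for replication and 1.01 for mitosis genes without replicate 1, and 1.33 and 0.61 without replicate 2. Both comparisons use the same unwounded libraries, so they are not independent of each other. Without either unwounded library, and with no filter on low values, no member passed in either comparison. With Cdkn1a included, 13 members were called higher with RNase III, against 5 without RNase III replicate 1 and 2 without replicate 2. For the wound that count was 4, against 1 without either wounded library and 8 without either RNase III library. Scaling by median of ratios moved the median of all genes from -0.26 to -0.003 for the wound, and for RNase III against unwounded corneas from -0.16 to -0.01. With that scaling 21 of the 50 rose with the wound and 26 with RNase III against unwounded corneas, where 10.5% and 8.29% of all genes were called higher. Over all genes the share of calls that were upward went from 38.4% to 60.5% in the wound comparison and from 50.8% to 60.9% in the other.

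Between RNase III and wounded corneas limma called 0 members, where 0% of all genes were called higher and 0% lower. An unadjusted p under 0.05 was found for 5 of the 50 and for 1838 of 14748 genes, and the smallest adjusted p of any gene was 0.124. The median difference of the 50 was 0.39, beside 0.09 for all genes, and without wounded replicate 1 it was 0.0055. No member was called in either direction under any of the 12 alternatives, which include leaving out each library. Above 0 were 40 of the 50, against 57.9% of all genes. Both RNase III libraries exceeded both wounded libraries for 13 of the 50, which is close to the 25.9% of all genes, and lay below them for 1 of the 50, against 14.3% of all genes.

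**Figure D2:**
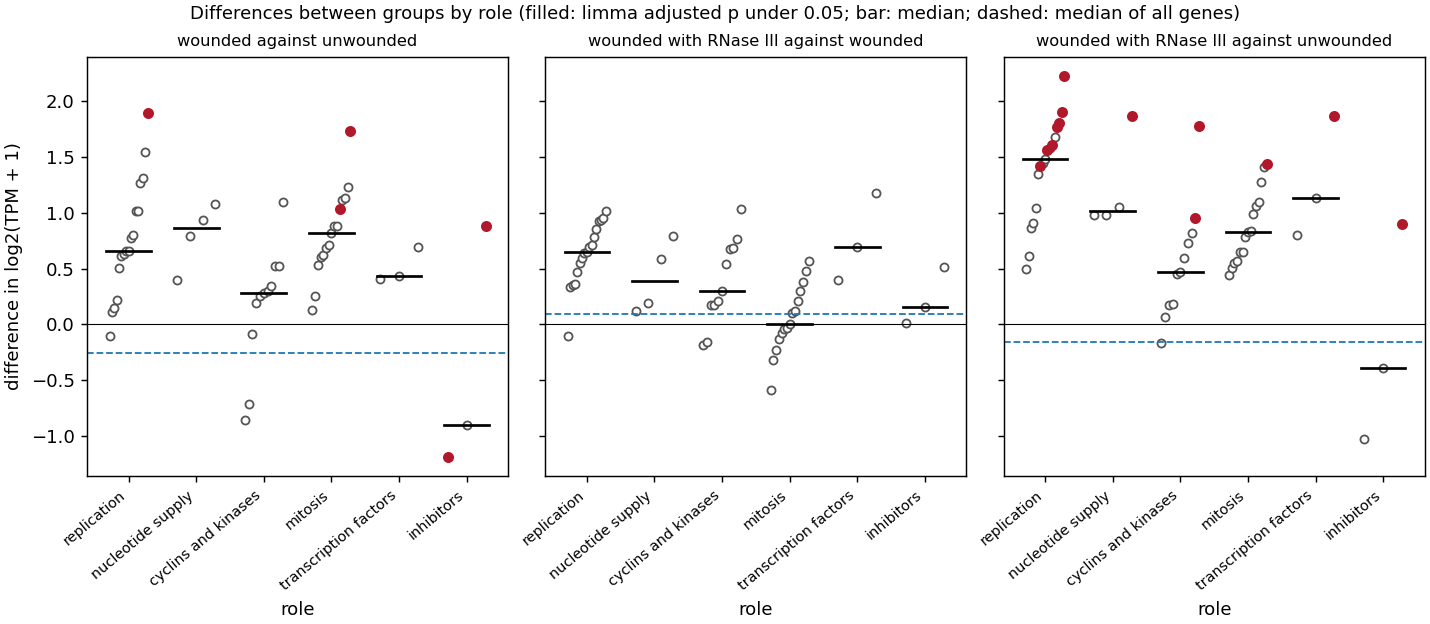
Each point is 1 gene that passed the filter, placed by role (horizontal axis) and by its difference in log2(TPM + 1) (vertical axis) in the 3 comparisons; filled points have a limma adjusted p under 0.05, bars are medians of a role and the dashed line is the median of all genes. The replication bar stands at 0.66, 0.64 and 1.48 in the 3 panels and the mitosis bar at 0.82, 0.00 and 0.83.

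Of the replication genes 7 rose with RNase III against unwounded corneas when both RNase III libraries were used, and all 7 calls were lost without either of them, the smallest adjusted p being 0.0535 for Mcm5 without replicate 1 and 0.0601 for Mcm3 without replicate 2. Mcm3, a subunit of the MCM helicase ring (ENSMUSG00000041859, chr1:20802968-20820312, minus strand, GRCm38), had 11.7 and 12.2 TPM without a wound, 32.5 and 67.9 TPM after wounding and 54.5 and 64.9 TPM with RNase III. Every wounded library was above every unwounded one, and both RNase III libraries lay between the 2 wounded ones. Mcm3 rose with the wound by 1.89 (SE 0.35, limma adjusted p = 0.0234), the only replication gene called in that comparison, and with RNase III against unwounded corneas by 2.23 (SE 0.35, adjusted p = 0.0248). Leaving out a library kept the rise of Mcm3 with the wound between 1.37 and 2.42, though the call was lost without either unwounded library.

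Mcm2, another subunit of that ring, stood at 9.62 and 11.8 TPM without a wound, 15.9 and 32.25 TPM after wounding and 29.1 and 54.2 TPM with RNase III. Its rise with RNase III was 1.80 (SE 0.42, adjusted p = 0.0472). For Mcm5 the values were 15.45 and 18.03 TPM, 28.9 and 59.4 TPM, and 47.8 and 89.3 TPM in the same order of groups, with a rise of 1.91 (SE 0.42, adjusted p = 0.0419). In Mcm2 and Mcm5 wounded replicate 2 lay above RNase III replicate 1, so these groups overlapped. Mcm6, at 21.1 and 27.3 TPM, 24.4 and 60.5 TPM, and 58.25 and 107 TPM, had a difference of 1.68 that did not pass (SE 0.47, adjusted p = 0.0671).

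Pcna, the sliding clamp of the DNA polymerases and the most abundant replication gene here, had 77.3 and 89.6 TPM without a wound, 109 and 188 TPM after wounding and 211 and 239 TPM with RNase III. The 3 groups did not overlap. Its rise with RNase III against unwounded corneas was 1.42 (SE 0.28, adjusted p = 0.0347), whereas its difference with the wound was 0.78 (SE 0.28, adjusted p = 0.0989) and that of RNase III against wounded corneas 0.64 (SE 0.28, adjusted p = 0.41).

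Gins1, a subunit of the GINS complex, had 6.35 and 6.5 TPM without a wound, 10.5 and 18.6 TPM after wounding and 22.1 and 21.4 TPM with RNase III, with a rise of 1.61 against unwounded corneas (SE 0.31, adjusted p = 0.0329). Cdt1, the loading factor of the MCM ring, had 4.64 and 5.45 TPM, 9.24 and 20.8 TPM, and 16.4 and 23.4 TPM, and rose by 1.77 (SE 0.40, adjusted p = 0.0452). For Rfc3, a subunit of the clamp loader, the values were 12.5 and 14.1 TPM, 14.0 and 30.5 TPM, and 35.7 and 47.6 TPM, with a rise of 1.57 (SE 0.37, adjusted p = 0.0495). Rfc3 in wounded replicate 1 lay between both unwounded libraries, while both RNase III libraries lay above all others. The other 10 replication genes, Mcm6 among them, did not pass against unwounded corneas. For all 17 both RNase III libraries exceeded both unwounded ones, as they did for 26.3% of all genes. The lowest difference of the 17 was 0.49. The 10 also hold the helicase subunit genes Mcm4 and Mcm7, the helicase partners Cdc45, Mcm10 and Gins2, the loading factor Cdc6, the clamp loader subunit Rfc4, and Pola1 and Prim1 of the enzyme that primes new strands.

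In nucleotide supply, Rrm2, the small subunit of ribonucleotide reductase that makes the building blocks of DNA (ENSMUSG00000020649, chr12:24708241-24714146, plus strand), had 20.7 and 21.5 TPM without a wound, 33.9 and 61.2 TPM after wounding and 74.9 and 84.8 TPM with RNase III. The groups were ordered without overlap. Rrm2 rose with RNase III against unwounded corneas by 1.87 (SE 0.29, adjusted p = 0.0248), and its difference with the wound was 1.08. Rrm1, the large subunit, had 41.1 and 39.5 TPM, 54.5 and 91.0 TPM, and 89.7 and 72.2 TPM, with a difference of 0.98 against unwounded corneas (SE 0.27, adjusted p = 0.0669). Tyms, thymidylate synthase, had 42.8 and 34.9 TPM, 54.9 and 101 TPM, and 78.3 and 84.4 TPM (1.05, SE 0.30, adjusted p = 0.0716). The highest library of both Rrm1 and Tyms was wounded replicate 2. Tk1, thymidine kinase, had a difference of 0.98 with RNase III against unwounded corneas and did not pass either.

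**Figure D3:**
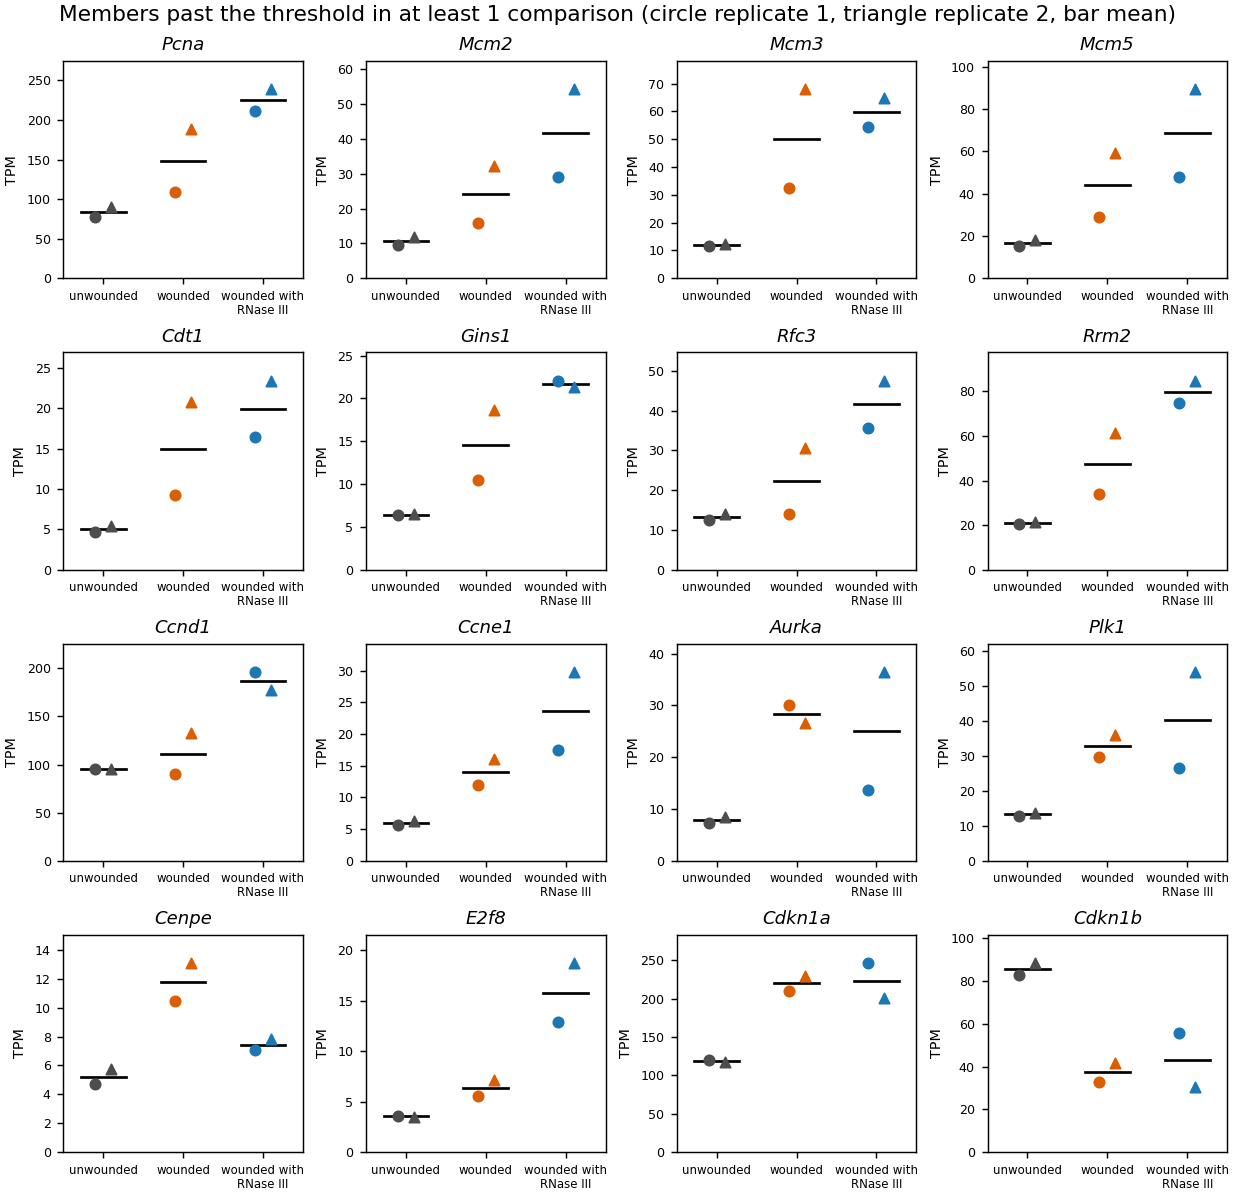
TPM (vertical axis, from 0) of the 16 members past the threshold in at least 1 comparison, by group (horizontal axis); each point is 1 library and bars are group means. For Pcna, Gins1, Rfc3, Rrm2, Ccnd1, Ccne1 and E2f8 both RNase III libraries lie above all other libraries, while Cenpe is highest in wounded corneas and Cdkn1b is highest in unwounded corneas.

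Cyclins of the same family differed in their values. Ccne1, a cyclin E that activates Cdk2 at the start of replication (ENSMUSG00000002068, chr7:38097984-38107534, minus strand), had 5.68 and 6.28 TPM without a wound, 12.01 and 16.05 TPM after wounding and 17.5 and 29.8 TPM with RNase III. The 3 groups did not overlap, and the rise with RNase III against unwounded corneas was 1.78 (SE 0.32, adjusted p = 0.0301), with 1.09 for the wound (SE 0.32, adjusted p = 0.0618). Ccne2, the other cyclin E, had 5.35 and 9.33 TPM, 2.17 and 5.28 TPM, and 7.13 and 9.28 TPM. Its wounded libraries lay below its unwounded ones, with a difference of -0.86 that did not pass (SE 0.43, adjusted p = 0.196). The ratio of Ccne1 to Ccne2 was 0.867 ± 0.275 without a wound, 4.29 ± 1.76 after wounding and 2.83 ± 0.53 with RNase III (SD, n = 2), and all 4 wounded libraries were above both unwounded ones.

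Ccnd1, the D-type cyclin that links growth signals to the kinases Cdk4 and Cdk6, had 95.4 and 95.7 TPM without a wound, 90.2 and 132 TPM after wounding and 196 and 177 TPM with RNase III. Wounded replicate 1 was below both unwounded libraries, and both RNase III libraries were above all others. Ccnd1 rose with RNase III against unwounded corneas by 0.96 (SE 0.22, adjusted p = 0.0472), and its difference from wounded corneas was 0.76 (SE 0.22, adjusted p = 0.317). Ccnd2 had 28.6 and 27.8 TPM, 13.9 and 20.3 TPM, and 16.5 and 37.7 TPM, lower in both wounded than in both unwounded libraries, with a difference of -0.71 (SE 0.40, adjusted p = 0.234). The values of Ccnd3 were 47.2 and 42.1 TPM, 53.02 and 61.0 TPM, and 35.0 and 73.2 TPM, so that its RNase III libraries enclosed the other 4. The ratio of Ccnd1 to Ccnd2 was 3.34 and 3.44 without a wound, 6.49 and 6.51 after wounding and 11.9 and 4.69 with RNase III. Not all ratios rose in this way. That of Ccnd1 to Ccnd3 was 2.02 and 2.27, 1.70 and 2.17, and 5.61 and 2.42, so unwounded and wounded libraries overlapped. Ratios of Aurka to Aurkb and of E2f8 to E2f1 did not have all 4 wounded libraries above both unwounded ones either.

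Cdk1 was the most abundant kinase gene of the members, with 92.8 and 96.5 TPM without a wound, 93.5 and 198 TPM after wounding and 161 and 175 TPM with RNase III. Wounded replicate 1 had the unwounded level. Its difference with RNase III against unwounded corneas was 0.82 (SE 0.34, adjusted p = 0.141). The mitotic cyclins Ccnb1 and Ccnb2 and the phosphatase gene Cdc25b, which activates Cdk1, like Ccna2 and Cdk2, did not pass in any comparison.

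Of the 15 mitosis genes 2 rose with the wound, where 6.12% of all genes were called higher. Aurka, a kinase of the spindle poles (ENSMUSG00000027496, chr2:172356190-172370535, minus strand), had 7.24 and 8.44 TPM without a wound, 30.1 and 26.6 TPM after wounding and 13.8 and 36.4 TPM with RNase III. It was the only 1 of the 50 members other than inhibitors that was higher in wounded replicate 1 than in wounded replicate 2, and its RNase III libraries enclosed both. Aurka rose with the wound by 1.73 (SE 0.43, adjusted p = 0.0425). Its difference with RNase III against unwounded corneas was 1.41 (adjusted p = 0.0781), ranging from 0.74 without RNase III replicate 2 to 2.09 without replicate 1, where it passed (adjusted p = 0.0279).

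Cenpe, a kinesin of the kinetochore, had 4.71 and 5.74 TPM without a wound, 10.45 and 13.1 TPM after wounding and 7.08 and 7.81 TPM with RNase III. It rose with the wound by 1.03 (SE 0.27, adjusted p = 0.0478), and it was the 1 mitosis gene whose RNase III libraries both lay below both wounded libraries, with a difference of -0.59 (SE 0.27, adjusted p = 0.43). The calls of Aurka and Cenpe in the wound comparison were lost without any 1 of the 4 libraries compared. Plk1, a kinase that acts on centrosomes and the spindle, had 12.9 and 13.7 TPM, 29.5 and 36.1 TPM, and 26.5 and 53.9 TPM. It rose with RNase III against unwounded corneas by 1.44 (SE 0.34, adjusted p = 0.0498), and its difference with the wound was 1.23 (SE 0.34, adjusted p = 0.0554).

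The most abundant mitosis genes were Ube2c, the ubiquitin carrier of the anaphase-promoting complex, and Birc5, survivin of the chromosomal passenger complex. Ube2c had 95.6 and 90.85 TPM without a wound, 113 and 178 TPM after wounding and 106 and 179.7 TPM with RNase III. Birc5 had 43.65 and 44.0 TPM, 58.5 and 105 TPM, and 67.9 and 90.6 TPM. In both genes the wounded and RNase III groups overlapped, and neither passed, with differences between those groups of -0.04 for Ube2c and 0.00 for Birc5. The proliferation marker Mki67, the DNA topoisomerase gene Top2a, the anaphase activator Cdc20, the spindle and checkpoint genes Aurkb, Bub1, Bub1b, Tpx2, Kif11 and Kif20a, and the centromeric histone gene Cenpa did not pass in any comparison. All 15 mitosis genes had positive differences against unwounded corneas in both comparisons, as did 37.1% and 41.5% of all genes. Their median was 0.82 for the wound and 0.83 for RNase III.

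Among the transcription factors, E2f8, a repressor of the E2F family that is itself made in S phase (ENSMUSG00000046179, chr7:48866429-48881596, minus strand), had 3.54 and 3.52 TPM without a wound, 5.57 and 7.18 TPM after wounding and 12.9 and 18.7 TPM with RNase III. The 3 groups did not overlap. E2f8 rose with RNase III against unwounded corneas by 1.87 (SE 0.30, adjusted p = 0.0253), and its difference from wounded corneas, the highest of all members, was 1.18 (SE 0.30, adjusted p = 0.302). Foxm1, an activator of mitosis genes, had 7.45 and 9.86 TPM, 9.2 and 14.9 TPM, and 11.8 and 20.9 TPM, with a difference of 0.80 against unwounded corneas (SE 0.37, adjusted p = 0.177). E2f1, an activating E2F factor, did not pass either, and in wounded replicate 1 it was below both unwounded libraries.

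With the wound 1 inhibitor rose and another fell. Cdkn1a, p21, which blocks cyclin-dependent kinases downstream of p53 (ENSMUSG00000023067, chr17:29090976-29100727, plus strand), had 120.2 and 117.7 TPM without a wound, 210 and 230.3 TPM after wounding and 246 and 201 TPM with RNase III. All 4 wounded libraries were above both unwounded ones. Cdkn1a rose with the wound by 0.88 (SE 0.18, adjusted p = 0.029) and with RNase III against unwounded corneas by 0.90 (SE 0.18, adjusted p = 0.0358), while RNase III and wounded corneas differed by 0.02 (95% confidence interval from -0.41 to 0.44, adjusted p = 0.981). The call with the wound was lost without any 1 of the 4 libraries compared (difference 0.82 to 0.95).

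Cdkn1b, p27, an inhibitor that is high in resting cells (ENSMUSG00000003031, chr6:134920401-134925513, plus strand), had 82.9 and 88.3 TPM without a wound, 32.7 and 41.8 TPM after wounding and 55.8 and 30.6 TPM with RNase III. All 4 wounded libraries lay below both unwounded ones. Cdkn1b fell with the wound by 1.19 (SE 0.30, adjusted p = 0.0452). The call was lost with median-of-ratios scaling, where the difference was -0.90 (adjusted p = 0.114). It was also lost with no filter, with the replicate block, with no trend and without any 1 of the 4 libraries compared. With RNase III against unwounded corneas Cdkn1b stood at -1.03 and did not pass. The ratio of Cdkn1a to Cdkn1b was 1.39 ± 0.08 without a wound, 5.97 ± 0.66 after wounding and 5.49 ± 1.52 with RNase III (SD, n = 2). No scaling of a library alters this ratio, but a rise of Cdkn1a alone would raise it. It joins the 1 inhibitor called higher and the 1 called lower with the wound in these data, so it adds no support to either call.

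Cdkn2b, p15, an inhibitor of Cdk4 and Cdk6 that responds to TGF-beta, had 62.2 and 49.0 TPM without a wound, 26.01 and 32.2 TPM after wounding and 55.45 and 31.4 TPM with RNase III. Both wounded libraries were below both unwounded ones, with a difference of -0.91 (SE 0.31, adjusted p = 0.0861), and RNase III replicate 1 had an unwounded level. Its neighbour on chromosome 4, Cdkn2a, whose locus makes both p16 and ARF, had 0.20 and 0.12 TPM without a wound, 0.91 and 0.30 TPM after wounding and 5.96 and 0.23 TPM with RNase III. RNase III replicate 1 alone was above 1 TPM, and Cdkn2a was not tested.

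**Figure D4:**
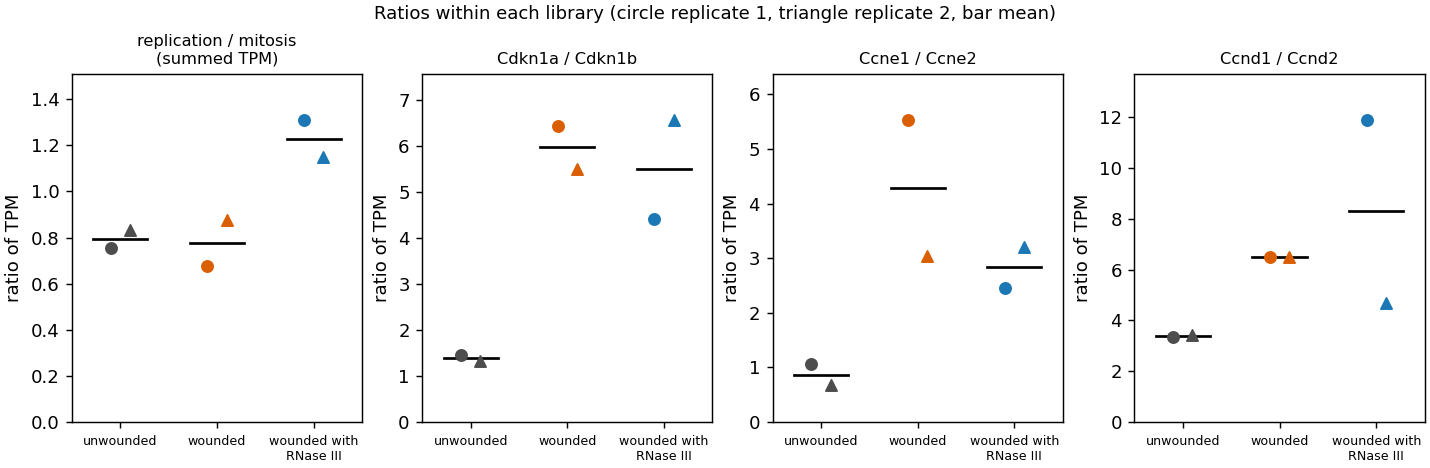
Ratios of TPM within each library (vertical axis, from 0) by group; each point is 1 library and bars are group means. The ratio of summed replication to summed mitosis genes lies at 1.311 and 1.148 with RNase III and at 0.68 to 0.88 in the other 4 libraries, and the ratio of Cdkn1a to Cdkn1b is higher in all 4 wounded libraries than in both unwounded ones.

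Replication genes summed to 257 and 294 TPM without a wound, 345 and 688 TPM after wounding and 660.0 and 919 TPM with RNase III, and mitosis genes to 341 and 353 TPM, 510.2 and 786 TPM, and 504 and 800.0 TPM. The ratio of the sums was 0.754 and 0.832 without a wound, 0.676 and 0.876 after wounding and 1.311 and 1.148 with RNase III. Both RNase III libraries lay above the other 4, which overlapped. Without Pcna, the most abundant replication gene, the ratio was 0.527 and 0.578, 0.463 and 0.636, and 0.892 and 0.850, in the same order.

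Gene by gene, RNase III against wounded corneas had a median difference of 0.64 in replication genes and 0.00 in mitosis genes. Both RNase III libraries exceeded both wounded libraries for 7 of 17 replication genes and 0 of 15 mitosis genes, where 25.9% of all genes did. Leaving out each of the 4 wounded libraries in turn gave replication medians from 0.21 to 1.04 and mitosis medians from -0.24 to 0.35, the mitosis value being lower each time. None of these genes passed on its own, and the difference between the sets was not tested. The contrast was smaller in the wider lists counted below. There the median was 0.52 in 42 other replication genes and 0.18 in 48 other mitosis genes. Positive differences were found for 40 of the 42 and 36 of the 48, against 57.9% of all genes. Both RNase III libraries exceeded both wounded libraries for 16 and 6 of them, and lay below for 1 of each list.

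Other genes of the same pathways were counted from lists of 132 genes. Of 42 other replication genes 3 rose with the wound and 9 with RNase III against unwounded corneas, and none was called lower. Over all genes 6.12% were called higher with the wound and 4.72% with RNase III, and 9.83% and 4.58% lower. The wound count was thus near that of all genes. Of the 42, 31 had a positive difference with the wound and 35 with RNase III, and 11 and 7 a negative one. Above 0 were 37.1% and 41.5% of all genes. Their medians were 0.32 and 0.83, beside 0.66 and 1.48 for the 17 replication members. Fen1, the nuclease that trims Okazaki fragments, had 10.4 and 13.8 TPM without a wound, 28.3 and 35.9 TPM after wounding and 44.4 and 45.2 TPM with RNase III, rising by 1.34 (adjusted p = 0.0216) and 1.81 (adjusted p = 0.0163). Chaf1b, a chaperone that deposits histones on new DNA, had 3.78 and 4.56 TPM, 10.2 and 19.0 TPM, and 22.7 and 24.3 TPM, rising by 1.54 and 2.25. Dbf4, the activator of the origin kinase Cdc7, rose by 1.23 and 1.46, and the polymerase alpha subunit gene Pola2 rose by 1.42 with RNase III against unwounded corneas (adjusted p = 0.0384). Of 48 other mitosis genes 4 rose in each comparison, with none called lower, which for the wound is again near the 6.12% of all genes called higher. These were Cks1b, Cdca8, Tacc3 and Kif22. Cks1b, a partner of cyclin-dependent kinases, had 42.0 and 45.8 TPM, 84.8 and 112 TPM, and 122 and 135 TPM. Of the 48, 37 had a positive difference with the wound and 43 with RNase III against unwounded corneas, and 11 and 5 a negative one. These stand beside the same 37.1% and 41.5% of all genes above 0, and the medians of the 48 were 0.45 and 0.64.

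In 23 other genes of G1 and the RB-E2F pathway 2 rose and 1 fell with the wound, and 3 rose with RNase III against unwounded corneas. Of all genes 6.12% were called higher and 9.83% lower with the wound, and 4.72% and 4.58% with RNase III. The wound counts of the 23 were thus not far from those of all genes. Myc, a growth factor-induced transcription factor, had 13.6 and 12.9 TPM without a wound, 63.4 and 33.04 TPM after wounding and 51.7 and 117 TPM with RNase III, rising by 1.71 (adjusted p = 0.0472) and 2.47 (adjusted p = 0.0301). Cdk4, the partner of the D-type cyclins, rose with the wound by 0.75, and Rbl2, a pocket protein of resting cells, fell with the wound by 1.33 (adjusted p = 0.041). Mybl2 and E2f4 rose with RNase III against unwounded corneas, by 1.64 and 1.04. Of 19 other inhibitors and p53 targets 18 passed the filter. Among the 18, 3 rose and 2 fell with the wound, and 5 rose and 2 fell with RNase III against unwounded corneas. These counts stand beside the same shares of all genes. Plk3, a stress-induced kinase that rose by 3.41 and 2.91, had 1.77 and 1.79 TPM without a wound, 28.01 and 29.2 TPM after wounding and 27.4 and 14.35 TPM with RNase III. Sesn2 and Bax rose in both comparisons and Mdm2, the ligase that degrades p53, with RNase III, while Sesn1 fell by 2.17 with the wound and by 1.91 with RNase III. In these 132 genes limma called 0 between RNase III and wounded corneas.

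Markers of cell types moved with the same groups. Their counts of calls stand beside 6.12% of all genes called higher and 9.83% lower with the wound. With RNase III against unwounded corneas these shares were 4.72% and 4.58%. Of the 12 corneal epithelium markers 3 rose and 1 fell with the wound, and 4 rose and 0 fell with RNase III. Stromal keratocyte markers summed to 7243 and 5694 TPM without a wound, 3745 and 4240 TPM after wounding and 990 and 1802 TPM with RNase III, with none of the 9 at 0, and 3 of 9 fell with the wound and 7 of 9 with RNase III against unwounded corneas. The 10 neutrophil markers summed to 94.2 and 74.3 TPM without a wound, 9206 and 526 TPM after wounding and 1294 and 1470 TPM with RNase III. Of these, 5 rose with the wound and 4 with RNase III, and 3 were at 0 in each unwounded library. The 12 macrophage markers summed to 270.3 and 196 TPM, 1388 and 712 TPM, and 271 and 551 TPM, with none at 0. Of these, 7 rose and 1 fell with the wound, and 2 rose and 1 fell with RNase III against unwounded corneas. Of the 8 lens markers, summed at 297 and 259 TPM, 658 and 411 TPM, and 248.7 and 3351 TPM, 2 rose in each of these comparisons and none was at 0 in all libraries. Lymphocyte markers summed to at most 4.78 TPM in any library, with 9 of 11 below 1 TPM everywhere. The part of cell mix in the differences above was not tested.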

How the data were processed

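RNA of 6 mouse cornea libraries, 2 in each of 3 groups, was analysed, with groups and replicate numbers from the sample titles. The authors deposited TPM values for 54446 Ensembl genes, and each column sums to 1000000. The submitters' processing notes name STAR, RSEM, DESeq2 and mm10, with no role, order or version. Annotation and counting settings are not stated by any source at hand. Symbols matched 54409 identifiers and 37 had none. Gene coordinates were read from the GENCODE M21 annotation of GRCm38, which is mm10.

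Values were taken as log2(TPM + 1). The 14748 genes that reached 1 TPM in 2 or more libraries were kept. All 6 libraries entered 1 model of group means (limma 3.58.1, R 4.3.3, empirical Bayes with an intensity trend). It had 3 residual and 3.6 prior degrees of freedom. Tests were two-sided, with Benjamini-Hochberg adjustment over the genes kept in each comparison. The fit was tested on simulated data with planted log2 changes of 3. These were larger than any member difference, so that test does not bear on calls of this size. Members, roles and lists were chosen with earlier results of these data known. Values by library are given for members past the threshold, the 2 most abundant of each role, every inhibitor and the D-type and E-type cyclins. From other lists up to 4 genes past the threshold are named.

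Each library was also left out in turn. Fits were repeated with scaling by median of ratios, without the filter, without the trend, with a pseudocount of 0.1, with the replicate number as block, and on just the 2 groups of a comparison.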

Additional observations from a re-analysis of the deposited data

How the results depend on the processing

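The member medians, taken over members other than inhibitors, kept their sign under all 12 alternatives, but the counts of calls did not keep their size. Members called higher and lower with the wound were 4 and 1, where 6.12% of all genes were called higher. They became 0 and 0 with no filter, where 0.717% of all genes were called higher, and 22 and 0 with median-of-ratios scaling (10.5%). They were 8 and 0 with the replicate block (4.67%), 8 and 2 with only the 2 groups compared (9.25%), and 2 and 0 with no trend (4.29%). Leaving out 1 library gave 0 to 8 higher and 0 to 2 lower, with 0 and 0 without either unwounded library. With RNase III against unwounded corneas, 13 members were called higher and 0 lower, where 4.72% of all genes were called higher. The members called higher became 0 with no filter (0.176% of all genes), 27 with median-of-ratios scaling (8.29%) and 5 with no trend (3.17%). Leaving out 1 library gave 0 to 19 higher and 0 to 1 lower. The median of the wound comparison was 0.65 and ranged from 0.24 to 1.12 over the leave-outs, and that of RNase III against wounded corneas was 0.39 and ranged from 0.0055 to 0.84. A group left with 1 library is assumed to vary like the others. The labels do not say whether same-numbered libraries share anything, and 2 libraries a group cannot settle it. Correlations of same-numbered deviations were 0.15, 0.10 and -0.05. Replicate 1 was below replicate 2 for 49 of the 50 members other than inhibitors in wounded and 44 in RNase III corneas. Of all genes this held for 64.4% and 67.7%. Fewer residual degrees of freedom apply without a library, with the block and with 2 groups, and more genes are tested with no filter (24958). In both comparisons with unwounded corneas, calls over all genes also fell with no filter and without either unwounded library. Scaling changes the level that all genes are compared with. Read depth is unknown, so no limit of detection can be given.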
